A study of Mus musculus with 11 samples.

Results

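The genes described are 10 imprinted growth genes built around H19 and Igf2: H19, Igf2, Igf2r, Dlk1, Meg3, Peg3, Mest, Grb10, Plagl1 and Ndn. They were taken by mouse symbol from a table of RNA-seq counts that holds 18756 mouse genes, and all 10 were found and passed the filter on low counts. The set was put together because H19 stood far higher in tumours with BRAF V600E, so every difference of these genes between the BRAF and GNA11 tumours is given as a description, without a p-value. For that comparison a later paragraph states how many of them pass the test applied to all genes, beside the share of all genes that do. It also names the fits in which a call is lost. The counts come from 11 end-point skin tumours of C57BL/6 mice in a genetically engineered melanoma model. There were 2 tumours with the oncogene GNA11 Q209L, 5 with GNA11 Q209L and Bap1 KO, and 4 with BRAF V600E and Bap1 KO. No treatment is labelled. GNA11 Q209L is an activating change of a G protein alpha subunit, BRAF V600E one of a MAPK pathway kinase, and Bap1 encodes a tumour suppressor that removes ubiquitin from histone H2A.

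The labels give neither age nor sex, and the promoters driving the oncogenes and the recombinase are also not given in the sources. Titles of GNA11 Q209L Bap1 KO replicates 1 and 2 share an identifier, and nothing states that the other tumours come from separate mice, so p-values measure the spread between these libraries. The table describes Bap1 in 2 header blocks. In the first all 4 BRAF libraries are BAP1 F/F, which marks a floxed allele, while the second writes NA for BRAF V600E Bap1 KO replicates 2 and 4. These 2 libraries are the ones with the most H19, so values are also given without them. Gene-level Bap1 counts ran from 54.7 to 71.3 CPM (depth-scaled counts, brought to one scale by the trimmed mean of M-values) in the BRAF libraries and averaged 121.4 ± 29.7 CPM (SD, n = 5) in the libraries labelled GNA11 Q209L Bap1 KO and 111.2 ± 36.8 CPM (SD, n = 2) in GNA11 Q209L. Gene-level Bap1 was thus no lower in those labelled knockouts, and since the deleted exons are not stated, a count over the whole gene does not check the knockout.

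Library totals ran from 18338082 to 81035135 counts. The 8 melanocyte markers, none of them at 0 in any library, summed to between 65946 and 100066 CPM in the tumours with GNA11 Q209L and to between 48.8 and 188 CPM in those with BRAF V600E. These markers were thus near absent from the BRAF tumours, which come from the same melanoma model. BRAF V600E Bap1 KO replicate 4 stood apart with 174756 CPM of salivary gland markers. Xist, which coats the inactive X chromosome, was at 99.8 and 1224 CPM in BRAF V600E Bap1 KO replicates 1 and 3 and at 0.92 and 0.262 CPM in replicates 2 and 4. In bulk tumours fewer cells of a type and less RNA per cell cannot be told apart, and gene counts do not show which parental allele was transcribed.

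Imprinted genes are transcribed mainly from the allele of 1 parent. In the mouse the maternal allele gives H19, a long non-coding RNA, and the paternal allele gives its neighbour Igf2, a fetal growth factor. A control region, which the insulator protein CTCF binds where it is not methylated, directs a shared set of enhancers to one gene or the other. Igf2 acts through the receptor Igf1r and is cleared by Igf2r, and many imprinted genes are abundant in the embryo and decline after birth. Plagl1 encodes a zinc finger factor known to activate several imprinted genes, H19 and Igf2 among them.

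The first exon of H19 also carries a microRNA, and its mature forms are shown because the level of H19 is the level of their host transcript. Both sequences are from RefSeq (GRCm38.p6), with the seed, bases 2 to 8, in capitals. Each lies on the minus strand of chromosome 7, and each was found in 3 of the 7 annotated H19 transcripts. The microRNAs themselves were not measured, and their seeds differ.
mmu-miR-675-5p, chr7:142577112-142577133: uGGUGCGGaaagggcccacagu
mmu-miR-675-3p, chr7:142577078-142577099: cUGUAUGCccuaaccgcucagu

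Promoter windows are printed only where a site searched for was matched, which was in Igf2, Igf2r and Meg3. RefSeq promoter windows of 250 bases before the start site (GRCm38.p6) were found for 9 of the 10 genes, 16 windows in all. For the Igf2r window, and for an Igf2 window not printed, a stretch shortly after the start was not found in the gene's annotated transcripts. Both strands were searched for the GC box GGGGCGGGG, the TATA box TATAAA and the PLAGL1 site. Capitals mark the matches in the sequences, and in Meg3 the matches on its 2 strands overlap.
Igf2, 1 of 4 windows, chr7:142657497-142657746, minus strand: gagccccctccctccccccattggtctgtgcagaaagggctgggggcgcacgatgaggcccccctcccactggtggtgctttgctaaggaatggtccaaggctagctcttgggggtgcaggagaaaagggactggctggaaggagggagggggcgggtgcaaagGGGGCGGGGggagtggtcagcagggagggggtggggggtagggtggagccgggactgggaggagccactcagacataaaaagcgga
Igf2r, chr17:12769707-12769956, minus strand: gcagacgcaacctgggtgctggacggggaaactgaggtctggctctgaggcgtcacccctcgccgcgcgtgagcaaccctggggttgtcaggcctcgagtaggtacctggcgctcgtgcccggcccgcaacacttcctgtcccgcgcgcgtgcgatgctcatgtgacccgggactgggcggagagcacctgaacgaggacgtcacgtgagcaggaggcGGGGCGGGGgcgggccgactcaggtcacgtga
Meg3, 1 of 2 windows, chr12:109540746-109540995, plus strand: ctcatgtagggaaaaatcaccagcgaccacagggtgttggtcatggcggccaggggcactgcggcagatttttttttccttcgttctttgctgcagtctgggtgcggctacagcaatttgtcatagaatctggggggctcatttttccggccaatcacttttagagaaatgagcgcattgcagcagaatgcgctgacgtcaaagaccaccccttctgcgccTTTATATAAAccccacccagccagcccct

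The GC box was present in 10.4% of all 32851 promoter windows of this length and in 2 of the 16 windows of these genes, those of Igf2 and Igf2r printed above. The TATA box was present in 12.4% of all windows and in 1 of the 16, that of Meg3. The PLAGL1 site was present in 0.07% of all windows and in none of the 16, which says only that these letters are not in these windows. CpG dinucleotides numbered 6, 27 and 10 in the printed windows of Igf2, Igf2r and Meg3, beside a median of 6 over all windows.

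H19 was scarce in every tumour with GNA11 Q209L and most abundant in a pair of the BRAF tumours. H19 (ENSMUSG00000000031) stood at 5.21 and 1.74 CPM in GNA11 Q209L replicates 1 and 2. It stood at 1.41, 2.54, 4.76, 0.524 and 0.173 CPM in GNA11 Q209L Bap1 KO replicates 1 to 5, the last from 10 counts. In BRAF V600E Bap1 KO replicates 1 to 4 it reached 11.1, 135, 7.73 and 71.8 CPM. All 4 BRAF libraries lay above all 7 others, and within the BRAF tumours the highest was 17.4-fold above the lowest. The mean of 56.3 ± 60.0 CPM (SD, n = 4) was 29.9-fold the mean of 1.88 ± 1.85 CPM (SD, n = 5) for GNA11 Q209L Bap1 KO, a log2 difference of 4.92 ± 1.11 (SE).

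That difference depends on 2 libraries. Replicates 2 and 4, whose Bap1 entry is NA in the second header block, averaged 103 CPM of H19 and replicates 1 and 3 averaged 9.41 CPM. With replicates 1 and 3 as the only BRAF libraries the log2 difference from GNA11 Q209L Bap1 KO was 2.34. Replicates 2 and 4 were also the BRAF libraries with under 1 CPM of Xist. In GNA11 Q209L Bap1 KO replicates 1 to 5 Xist was at 0.706, 0.995, 695, 0.428 and 1.42 CPM. H19 in the same libraries was at 1.41, 2.54, 4.76, 0.524 and 0.173 CPM, so low Xist occurred there beside low H19. Whether Bap1 state or sex has a part in the H19 level was not tested. The BRAF mean was 30.2 CPM without replicate 2.

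Skeletal muscle, a tissue known for H19, was checked with 12 markers, of which 10 were in the table. They summed to 73.3, 246, 34.7 and 4996 CPM in BRAF V600E Bap1 KO replicates 1 to 4. The sum was 27.8 and 5.75 CPM in GNA11 Q209L and between 6.03 and 96.1 CPM in GNA11 Q209L Bap1 KO, where replicate 3 was highest for both H19 and this sum. BRAF replicate 2 thus held 135 CPM of H19 beside 246 CPM of muscle markers, and replicate 4 held 71.8 CPM beside 4996 CPM. The sum in BRAF replicates 2 and 4 was above that of every GNA11 library. By edgeR 7 of the 8 markers tested rose in BRAF V600E Bap1 KO, beside 24.7% of all genes. Without replicate 4, 0 of the 8 rose, in a fit with 3408 of 16874 genes higher. Myod1, Myog, Myh3, Myh8, Myh4, Ckm and Tnnt3 were at 0 counts in at least 1 of the 11 libraries. The part of muscle RNA in the H19 level was not tested.

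Igf2 was the most even of the 4 genes among the 10 that stood higher in all BRAF tumours. Igf2 (ENSMUSG00000048583) stood at 2.36 and 1.16 CPM in GNA11 Q209L and at 1.09, 1.55, 1.03, 1.52 and 0.622 CPM in GNA11 Q209L Bap1 KO replicates 1 to 5. In BRAF V600E Bap1 KO replicates 1 to 4 it reached 14.6, 20.7, 14.3 and 9.27 CPM. The BRAF libraries lay above all others and within 2.24-fold of each other. Means were 14.7 ± 4.69 CPM (SD, n = 4) and 1.16 ± 0.386 CPM (SD, n = 5), a 12.7-fold difference and 3.67 ± 0.42 on the log2 scale (SE). BRAF replicates 1 and 3 averaged 14.5 CPM and replicates 2 and 4 averaged 15.0 CPM, so the split seen for H19 was not seen for Igf2.

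The ratio of H19 to Igf2 counts, which compares 2 neighbouring genes in 1 library and needs no scaling, separated the BRAF tumours into pairs. It was 6.5 and 7.75 in BRAF V600E Bap1 KO replicates 2 and 4 and 0.757 and 0.539 in replicates 1 and 3. In GNA11 Q209L it was 2.21 and 1.5. In GNA11 Q209L Bap1 KO replicates 1 to 5 it was 1.3, 1.64, 4.63, 0.344 and 0.278, so both sides of 1 occurred there as well. As counts are not divided by transcript length, the ratio is read between libraries alone.

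**Figure D1:**
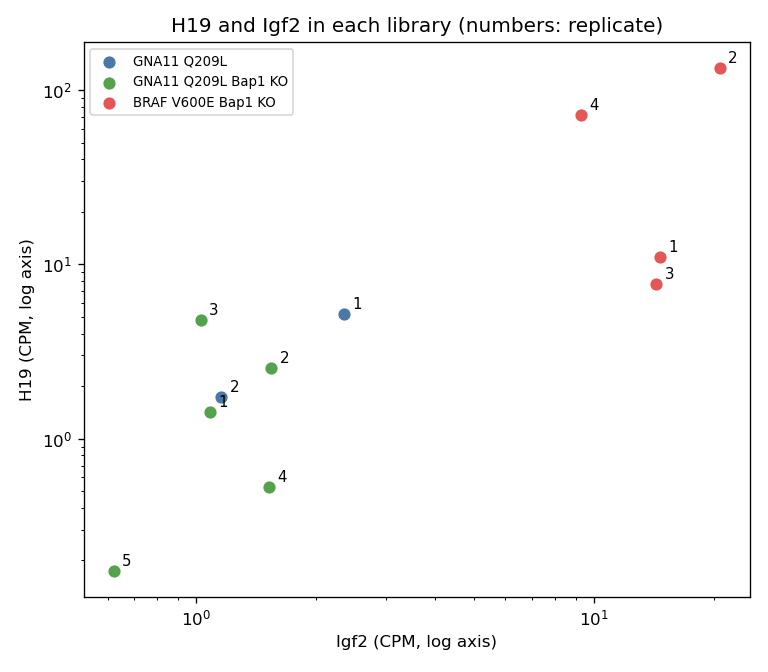
H19 (vertical axis) against Igf2 (horizontal axis) in CPM on log axes, 1 point per library, coloured by genotype and numbered by replicate. The 4 BRAF V600E Bap1 KO libraries lie to the right of all others between 9.27 and 20.7 CPM of Igf2, with H19 at 135 and 71.8 CPM in replicates 2 and 4 and at 11.1 and 7.73 CPM in replicates 1 and 3.

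The receptor Igf2r overlapped between the genotypes, unlike its ligand. Igf2r (ENSMUSG00000023830), which binds Igf2 and carries it to the lysosome, stood at 224 and 212 CPM in GNA11 Q209L and at 269.8, 432, 133, 149.3 and 331 CPM in GNA11 Q209L Bap1 KO. It was at 536, 173, 111 and 154 CPM in BRAF V600E Bap1 KO replicates 1 to 4. BRAF replicate 1 held over 3 times the level of the next BRAF library. The log2 difference between the genotypes with Bap1 KO was -0.11 ± 0.50 (SE), and its sign changed with the library left out (from -0.85 to 0.13).

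Meg3 and Dlk1 sit in the same imprinted domain, Meg3 as a maternally transcribed non-coding RNA and Dlk1 as a paternally transcribed membrane protein of the Notch ligand type. Meg3 (ENSMUSG00000021268) stood at 7.07 and 0.446 CPM in GNA11 Q209L and at 1.85, 0.387, 0.595, 1.90 and 0.501 CPM in GNA11 Q209L Bap1 KO. It reached 24.1, 17.8, 68.2 and 44.4 CPM in BRAF V600E Bap1 KO. Groups did not overlap, with a mean of 38.6 ± 22.7 CPM (SD, n = 4) against 1.05 ± 0.76 CPM (SD, n = 5), 36.9-fold and 5.21 ± 0.85 on the log2 scale (SE).

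Dlk1 (ENSMUSG00000040856) was low in all but 1 tumour. It had 0 counts and 0.803 CPM in GNA11 Q209L replicates 1 and 2, where 0 counts allow up to 0.0785 CPM. It stood at 0.217, 0.442, 0.92, 0.476 and 0.536 CPM in GNA11 Q209L Bap1 KO and at 2.49, 0.545, 21.9 and 1.40 CPM in BRAF V600E Bap1 KO. BRAF replicate 3 alone set the BRAF mean of 6.59 ± 10.3 CPM (SD, n = 4), which was 1.48 CPM without it. The log2 difference of 3.66 ± 1.23 (SE) was 1.52 without that library, and the genotypes overlapped. Meg3 counts exceeded Dlk1 counts 9.66-fold, 32.6-fold, 3.11-fold and 31.7-fold in BRAF replicates 1 to 4. The ratios of replicates 2 and 4 rest on 16 and 32 Dlk1 counts. Meg3 itself was lowest among the BRAF libraries in replicate 2, at 17.8 CPM. In GNA11 Q209L Bap1 KO the ratio ran from 0.647 to 8.5, on 4 to 31 Dlk1 counts.

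Peg3 (ENSMUSG00000002265), a paternally transcribed zinc finger protein, was the 1 gene of the 10 whose 3 genotypes did not overlap at all. It stood at 4.87 and 8.47 CPM in GNA11 Q209L and at 3.96, 3.21, 0.974, 1.24 and 0.467 CPM in GNA11 Q209L Bap1 KO. The levels in BRAF V600E Bap1 KO were 16.2, 31.1, 71.4 and 82.02 CPM. The BRAF mean of 50.2 ± 31.5 CPM (SD, n = 4) was 25.5-fold that of 1.97 ± 1.52 CPM (SD, n = 5) for GNA11 Q209L Bap1 KO (4.68 ± 0.72 on the log2 scale, SE).

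Plagl1 ran in the opposite direction to H19 and Igf2. Plagl1 (ENSMUSG00000019817) stood at 149.7 and 229 CPM in GNA11 Q209L and at 215, 712, 289.6, 354 and 367 CPM in GNA11 Q209L Bap1 KO. It was at 7.001, 2.49, 36.3 and 20.1 CPM in BRAF V600E Bap1 KO. All BRAF libraries lay below all others, and the lowest Plagl1 level was in BRAF replicate 2, the library with the most H19 and the most Igf2. The mean of 387 ± 191 CPM (SD, n = 5) was 23.5-fold that of 16.5 ± 15.2 CPM (SD, n = 4), with a log2 difference of -4.56 ± 0.77 (SE) for BRAF V600E Bap1 KO minus GNA11 Q209L Bap1 KO.

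Mest and Ndn divided the BRAF tumours in another way. Mest (ENSMUSG00000051855), a paternally transcribed hydrolase-like protein, stood at 4.50 and 3.34 CPM in GNA11 Q209L and at 6.57, 7.85, 1.73, 3.09 and 6.07 CPM in GNA11 Q209L Bap1 KO. The levels in BRAF V600E Bap1 KO were 1.85, 5.38, 51.4 and 23.3 CPM. Ndn (ENSMUSG00000033585), a growth suppressor of the MAGE family, stood at 9.16 and 6.11 CPM in GNA11 Q209L and at 3.26, 7.19, 5.57, 1.24 and 1.18 CPM in GNA11 Q209L Bap1 KO. It was at 0.652, 1.57, 14.9 and 18.6 CPM in BRAF V600E Bap1 KO. For both genes BRAF replicates 3 and 4 lay above every other library and replicates 1 and 2 lay within or below the GNA11 range. Log2 differences between the genotypes with Bap1 KO were 2.01 ± 0.81 for Mest and 1.28 ± 0.91 for Ndn (SE).

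BRAF replicates 3 and 4 were also the libraries with the most fibroblast RNA. The 10 fibroblast markers summed to 4356, 4331, 23347 and 15424 CPM in BRAF V600E Bap1 KO replicates 1 to 4. They summed to 11979 and 2962 CPM in GNA11 Q209L and to between 397 and 2415 CPM in GNA11 Q209L Bap1 KO, and none of the 10 was at 0 in any library. The part of fibroblast RNA in the levels of Mest, Ndn, Peg3 and Meg3 was not tested.

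Grb10 (ENSMUSG00000020176), an adaptor that dampens insulin and IGF receptor signalling, overlapped between the 3 genotypes. It stood at 75.5 and 110.3 CPM in GNA11 Q209L and at 127, 109.6, 22.8, 131 and 103 CPM in GNA11 Q209L Bap1 KO. The levels in BRAF V600E Bap1 KO were 42.9, 11.4, 96.4 and 127 CPM. Single libraries were low in both genotypes with Bap1 KO. The log2 difference was -0.51 ± 0.63 (SE).

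**Figure D2:**
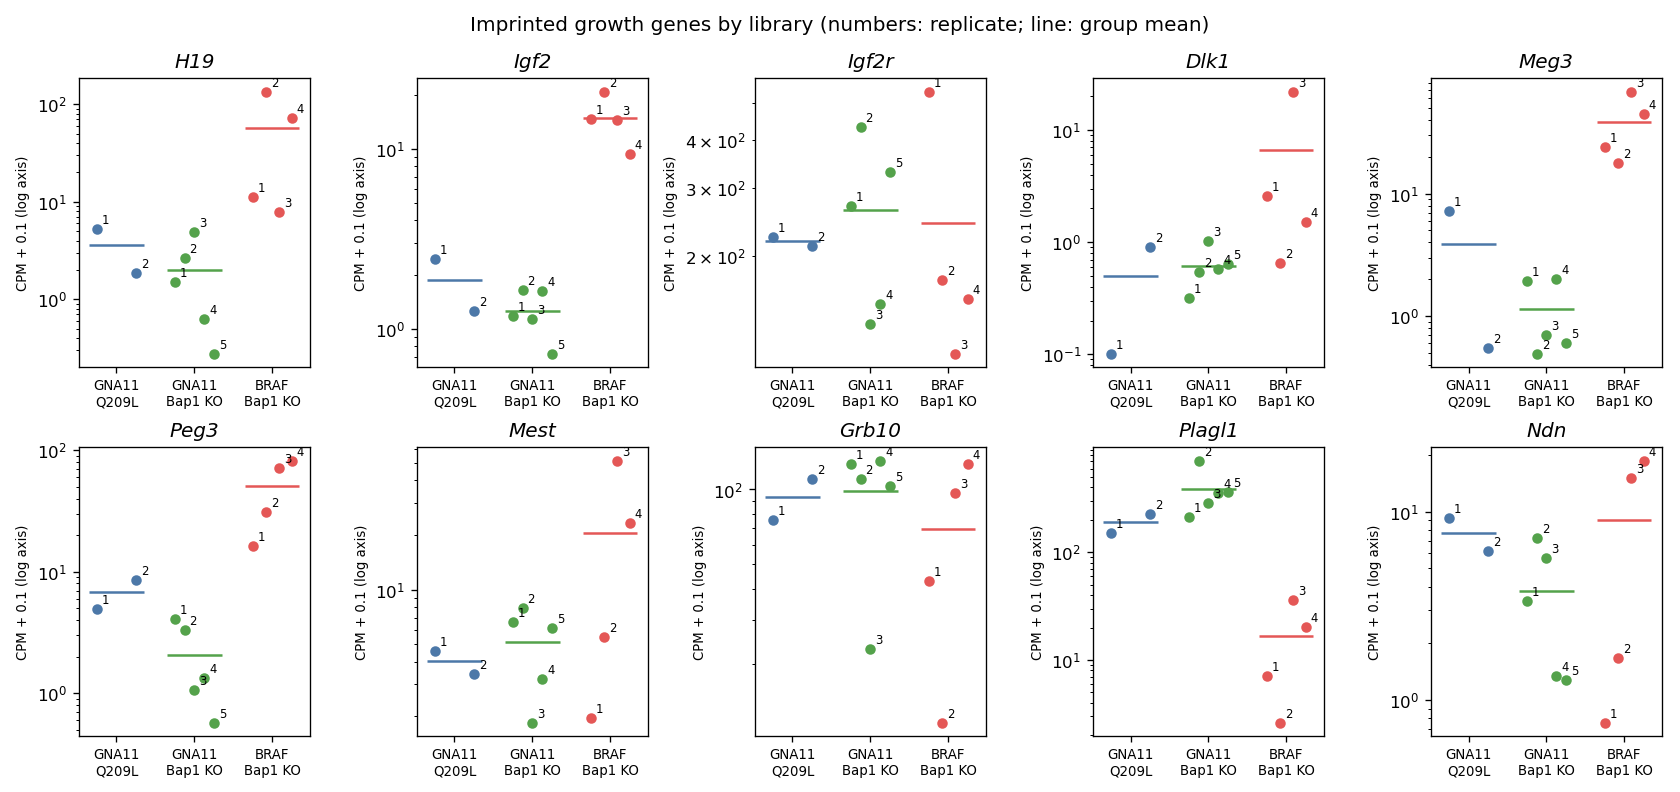
CPM plus 0.1 on a log axis for the 10 genes, 1 panel per gene, with 1 point per library numbered by replicate and a line at the mean of each genotype. H19, Igf2, Meg3 and Peg3 are higher and Plagl1 is lower in all 4 BRAF V600E Bap1 KO libraries than in any other, while the other 5 panels show overlapping genotypes.

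Between the genotypes with Bap1 KO, 4 of the 10 genes were higher and 1 was lower in BRAF V600E without overlap, where 17.2% and 14.7% of the 17350 genes tested were (31.8% in either direction). By edgeR's quasi-likelihood test at an adjusted p of 0.05, 5 were called higher (24.7% of all genes) and 1 lower (16.5%), with 41.2% of all genes called in either direction. Both counts come from the contrast for which the set was chosen, and nothing is read from them or from calls lost in other fits. With BRAF replicates 2 and 4 left out H19 was no longer called, which left 4 higher and 1 lower. As these are the libraries with the most H19, leaving them out lowers its difference by construction. That fit called 3571 of 16254 genes, 2199 of them higher. The call of Dlk1 was lost without BRAF replicate 3, with limma voom, with the libraries of one identifier summed, and without any 1 of the 5 GNA11 Q209L Bap1 KO libraries. The median log2 difference was 2.84 over the 10 genes and 0.26 over all genes.

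The comparison of GNA11 Q209L Bap1 KO with GNA11 Q209L was not used to choose the genes, and it sets libraries labelled as Bap1 knockouts beside those that are not, where the oncogene is shared. None of the 10 genes changed by edgeR's quasi-likelihood test, with adjusted p from 0.415 to 0.989, where 0.0288% of all genes passed (0.00576% higher and 0.0231% lower). At an unadjusted p under 0.05 edgeR had 1 of the 10, Peg3, while DESeq2 had 1 and limma voom 0, and neither tool called any after adjustment. Peg3 averaged 1.97 ± 1.52 CPM (SD, n = 5) in the labelled knockouts, against 6.67 ± 2.55 CPM (SD, n = 2) in the others, with a log2 difference of -1.77 ± 0.76 (SE, adjusted p = 0.415). Its groups did not overlap, in a comparison where 9.01% of all genes were lower and 7.58% higher without overlap.

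The other genes had wide errors in that comparison. Log2 differences were -0.91 ± 1.19 for H19 (SE, adjusted p = 0.845) and -0.61 ± 0.48 for Igf2 (adjusted p = 0.692). Meg3 differed by -1.86 ± 0.89 (adjusted p = 0.467) and Plagl1 by 1.03 ± 0.84 (adjusted p = 0.701). The signs for H19 and Meg3 rest on GNA11 Q209L replicate 1, since without it they were 0.095 and 1.21. Dlk1 turned from 0.41 to -0.63 without it. Ndn had -1.05, and Igf2r, Dlk1, Mest and Grb10 lay between 0.09 and 0.41. The median was -0.26 over the 10 genes and -0.0040 over all genes. In GNA11 Q209L replicate 1 fibroblast markers reached 11979 CPM and the 8 macrophage and T cell markers 6056 CPM, against 2962 and 612 CPM in replicate 2, and their part in these values was not tested.

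**Figure D3:**
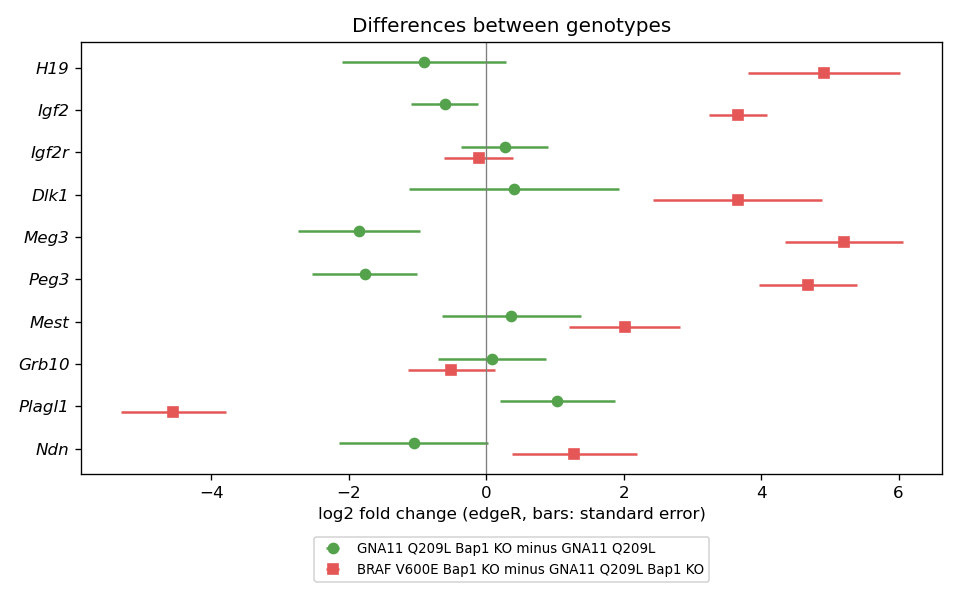
Log2 fold change (horizontal axis) of the 10 genes with its standard error as a bar, for GNA11 Q209L Bap1 KO minus GNA11 Q209L (circles) and BRAF V600E Bap1 KO minus GNA11 Q209L Bap1 KO (squares). Circles lie between -1.86 and 1.03, squares between -4.56 for Plagl1 and 5.21 for Meg3, and the series share the GNA11 Q209L Bap1 KO libraries.

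Other imprinted genes, from lists chosen by domain, went both ways between the genotypes with Bap1 KO. Of 59 genes 51 were in the table and 49 were tested. In BRAF V600E Bap1 KO 15 rose and 12 fell (edgeR, adjusted over all genes), where 24.7% and 16.5% of all genes did. Zim1 and Rasgrf1 among the 15 and Slc22a2 among the 12 were at or near 0 counts in the lower genotype. The median log2 difference was 0.07, and 0.26 over all genes, and it was the same with the 2 genes of at most 3 counts in a group set to their bound. With BRAF replicates 2 and 4 left out 13 rose and 5 fell, in a fit that called 3571 of 16254 genes, 2199 of them higher. For Bap1 KO against no knockout under GNA11 Q209L, edgeR called 0 of the 49, with 11 at an unadjusted p under 0.05, as were 1970 of all 17350 genes. DESeq2 called 1 of the list and 431 of 16277 genes in all, and limma voom 0 of the list and 5 in all.

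In some domains neighbours of the 10 genes rose. Rian, a non-coding RNA transcribed beside Meg3, stood at 8.49 to 23.1 CPM in BRAF V600E Bap1 KO and at 0.332 to 1.29 CPM in GNA11 Q209L Bap1 KO (log2 fold change 4.56 ± 0.67, adjusted p = 0.00109). In the same domain Begain also rose (2.64 ± 0.91, adjusted p = 0.0382). It stood at 2.54, 1.60, 49.6 and 8.48 CPM in the BRAF libraries, overlapped with GNA11 Q209L Bap1 KO at 1.05 to 3.26 CPM, and was not called without BRAF replicate 3. In that domain Dio3, which inactivates thyroid hormone, had 2.75 with adjusted p = 0.148. Rtl1 was at no more than 0.453 CPM in any library and was not tested. Airn, the non-coding RNA antisense to Igf2r, rose from 3.76 ± 1.72 to 16.7 ± 7.23 CPM (2.15 ± 0.44, adjusted p = 0.00493). Whether counting used the strand is not stated, so reads of Airn and Igf2r in their overlap cannot be told apart. In that domain the transporter gene Slc22a3 rose (adjusted p = 0.0154), with 5.81 CPM in BRAF replicate 4 and under 1 CPM in the others, and Slc22a2 fell, to 2 counts in all 4 BRAF libraries. Zim1, next to Peg3, had 0 counts in all 7 libraries with GNA11 Q209L and 0.281 to 2.97 CPM in the BRAF libraries, a mean at least 57.2-fold higher than 3 counts pooled over GNA11 Q209L Bap1 KO. With BRAF replicates 2 and 4 left out Airn rose as well, while Slc22a3 and Zim1 no longer passed the filter on low counts.

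Around Mest and Peg10, 2 of the 8 genes tested rose and 1 fell, about the shares of all genes that did (24.7% and 16.5%). Peg10, a paternally transcribed gene derived from a retrotransposon, rose from 3.21 ± 1.24 to 19.4 ± 5.72 CPM (2.59 ± 0.42, adjusted p = 0.00169). Ppp1r9a, which binds actin at synapses, rose as well (2.44, adjusted p = 0.00999). Copg2, a coat protein of transport vesicles that lies beside Mest, fell (-0.74, adjusted p = 0.0141), and Sgce, the partner of Peg10, had -0.01. Near Ndn the genes Peg12 (3.85 ± 0.59, adjusted p = 0.00143) and Mkrn3 (2.92, adjusted p = 0.0121) rose, both from under 1 CPM. Snrpn, a splicing protein gene of that domain, fell from 36.7 ± 8.38 to 4.72 ± 5.09 CPM (-2.97, adjusted p = 0.0221). Thus paternally transcribed genes of 1 domain moved in opposite directions.

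The Kcnq1 domain lies beside Igf2 and H19 on chromosome 7, and 5 of its 10 genes tested fell while 2 rose, beside 16.5% and 24.7% of all genes. Cdkn1c, an inhibitor of cyclin-dependent kinases that restrains growth, fell (-3.87 ± 1.26, adjusted p = 0.0315). It ranged from 3.09 to 448 CPM within GNA11 Q209L Bap1 KO, against 5.23 to 19.8 CPM within BRAF V600E Bap1 KO, so the groups overlapped. Osbpl5, a lipid transfer protein, fell by 1.29 and the tetraspanin Cd81 by 1.00 on the log2 scale (adjusted p = 0.0078 and 0.0252). Phlda2, known to limit placental growth, rose (3.44, adjusted p = 0.00631), as did the tetraspanin Tspan32 (2.79, adjusted p = 0.00298). With BRAF replicates 2 and 4 left out 2 genes of this domain rose and 1 fell, and without replicate 4 alone 2 rose and 3 fell. These fits called 3571 of 16254 genes (2199 higher) and 5806 of 16874 genes (3408 higher).

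Of the 19 imprinted genes tested in the Grb10 and Gnas domains and as single genes, 4 rose and 4 fell, beside 24.7% and 16.5% of all genes. Rasgrf1, a Ras exchange factor, stood at 273, 100.1, 2.40 and 1.01 CPM in BRAF V600E Bap1 KO replicates 1 to 4. In GNA11 Q209L Bap1 KO it was at no more than 0.111 CPM, where 3 counts correspond to 0.0519 to 0.166 CPM. Its fitted log2 fold change of 11.47 ± 1.91 (SE) thus rests on few counts in that genotype. Nnat, a small membrane proteolipid of developing brain, stood at 18.1, 53.2, 2.72 and 37.0 CPM in the BRAF libraries and at 2.02 ± 0.728 CPM in GNA11 Q209L Bap1 KO (3.78, adjusted p = 0.00285). Nap1l5 fell (-4.17, adjusted p = 0.00215), as did Trappc9 (-2.06, adjusted p = 0.00401) and Gnas, the stimulatory G protein alpha subunit (-1.12, adjusted p = 0.0115). The count of Gnas joins the several transcripts of that locus.

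**Figure D4:**
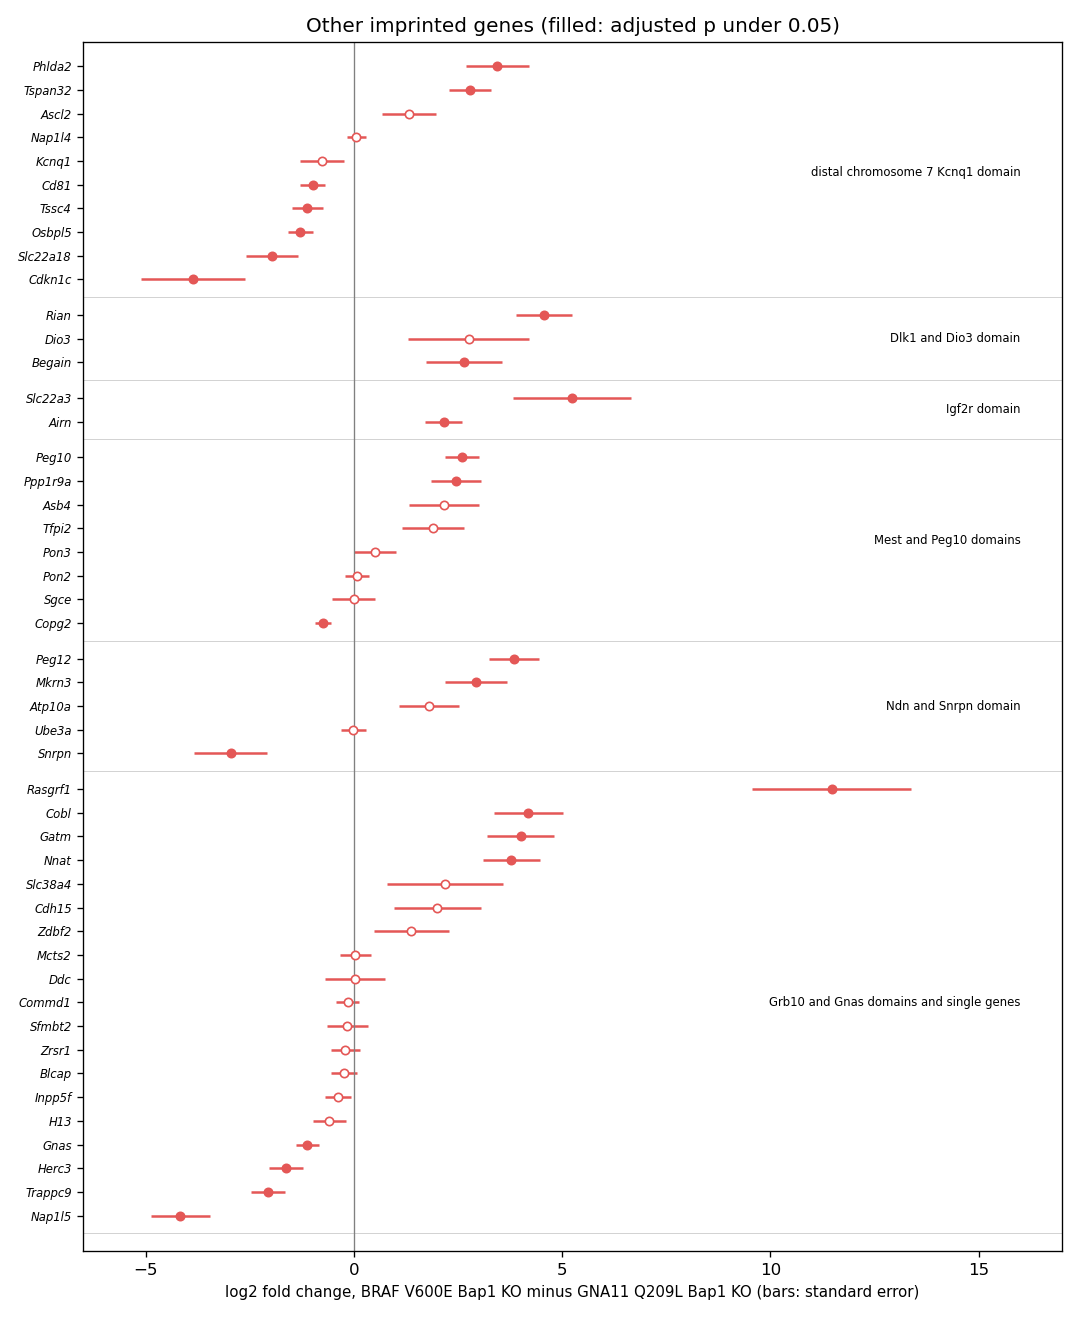
Log2 fold change with its standard error, BRAF V600E Bap1 KO minus GNA11 Q209L Bap1 KO, for imprinted genes outside the 10, grouped by domain, with filled points for adjusted p under 0.05. Zim1 and Slc22a2, with at most 3 counts in a group, are not drawn. Filled points lie on both sides of 0, from -4.17 for Nap1l5 to 11.47 for Rasgrf1, which had few counts in GNA11 Q209L Bap1 KO.

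Of the 11 genes tested for IGF binding proteins and their proteases 6 rose and none fell in the BRAF tumours, where 24.7% and 16.5% of all genes did. The median log2 difference was 2.78, and 0.26 over all genes. Igfbp3, Igfbp5, Igfals, Stc1 and Stc2 were not called, with log2 differences from -0.16 to 1.502. Pappa, which cuts the binding protein Igfbp4 and frees IGF, stood at 6.18, 7.22, 52.1 and 77.6 CPM in BRAF V600E Bap1 KO replicates 1 to 4 and at 0.0553 to 0.489 CPM in GNA11 Q209L Bap1 KO (7.22 ± 0.96, adjusted p = 0.000751). Its substrate Igfbp4 rose from 106 ± 38.6 to 1543 ± 959 CPM (3.86 ± 0.58, adjusted p = 0.00129). Igfbp6, which prefers Igf2 as its ligand, rose from 2.59 ± 2.99 to 136 ± 58.0 CPM (5.72 ± 0.89, adjusted p = 0.00144). The related protease Pappa2 rose too (4.42, adjusted p = 0.00418). Igfbp2 and Igfbp7 were also called, but overlapped with GNA11 Q209L Bap1 KO. In BRAF replicates 1 to 4 Igfbp2 stood at 0.494, 0.954, 35.5 and 30.3 CPM and Igfbp7 at 58.4, 88.2, 1044 and 656 CPM. Their means in GNA11 Q209L Bap1 KO were 1.33 and 67.1 CPM. With BRAF replicates 2 and 4 left out 5 of the list rose, and without replicate 3 alone 4 rose. These fits called 2199 of 16254 and 3568 of 16906 genes higher. For Bap1 KO against no knockout under GNA11 Q209L, edgeR called 0 of the 11, with 3 at an unadjusted p under 0.05, and DESeq2 and limma voom called 0.

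Of the 4 ligand and receptor genes tested 1 rose and 0 fell, beside 24.7% and 16.5% of all genes. Igf1, the postnatal relative of Igf2, stood at 11.1, 14.6, 166 and 134 CPM in BRAF V600E Bap1 KO and at 12.2 ± 7.84 CPM in GNA11 Q209L Bap1 KO (2.74 ± 0.96, adjusted p = 0.0406). Its high libraries were BRAF replicates 3 and 4, those high in fibroblast markers, and the call was lost without replicate 3, without replicate 4 and without replicates 2 and 4 together. The signalling receptor Igf1r stood at 228, 63.4, 22.3 and 22.3 CPM in BRAF V600E Bap1 KO, highest in the pair with the lower Igf1, and at 45.4 ± 24.7 CPM in GNA11 Q209L Bap1 KO (0.89 ± 0.70, adjusted p = 0.325). Insr, the insulin receptor, had 0.55 ± 0.26 (adjusted p = 0.111).

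**Figure D5:**
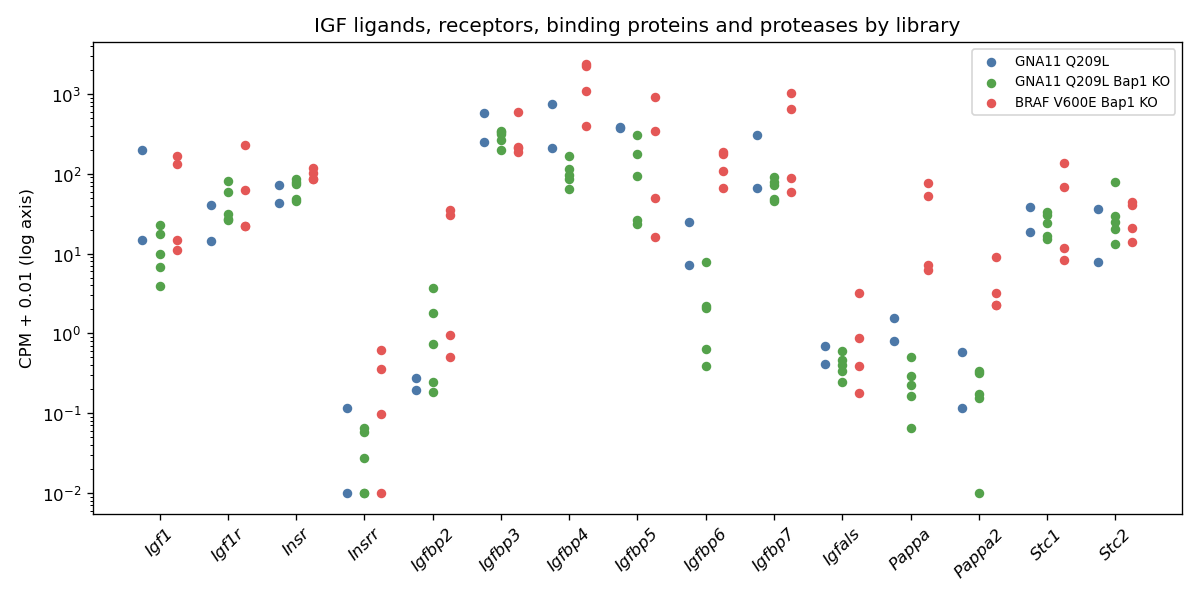
CPM plus 0.01 on a log axis for IGF ligands, receptors, binding proteins and their proteases, 1 point per library, coloured by genotype. Pappa, Pappa2, Igfbp4 and Igfbp6 are higher in all 4 BRAF V600E Bap1 KO libraries than in any GNA11 Q209L Bap1 KO library, while Igf1r and Igfbp3 overlap.

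Signalling genes below the IGF receptors did not move in 1 direction: of 24 tested 5 rose and 7 fell, beside 24.7% and 16.5% of all genes, with a median of -0.02. Irs1, the docking protein of both receptors, rose from 6.42 ± 2.20 to 31.4 ± 9.49 CPM (2.29 ± 0.35, adjusted p = 0.00133) and the PI3-kinase subunit Pik3r1 rose (2.05 ± 0.34, adjusted p = 0.00193). Another subunit, Pik3r3, fell from 259 ± 75.8 to 23.9 ± 16.7 CPM (-3.44 ± 0.53, adjusted p = 0.00143). Grb14, an adaptor related to Grb10, rose from 0.111 ± 0.0908 to 9.67 ± 8.33 CPM (6.46, adjusted p = 0.00128). With BRAF replicates 2 and 4 left out 5 rose and 2 fell, in a fit that called 3571 of 16254 genes, 2199 of them higher.

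Fetal genes, among them binders of Igf2 RNA and targets of the let-7 microRNA, formed another list. Of 10 tested 5 rose and none fell, beside 24.7% and 16.5% of all genes, with a median of 0.93. Without BRAF replicate 3 the count that rose was 3, and without replicate 4, or without replicates 2 and 4, 5 rose and 1, Sall4, fell. Over all genes, 3568 of 16906 rose without replicate 3. Without replicate 4, 5806 of 16874 were called (3408 higher), and without replicates 2 and 4, 3571 of 16254 (2199 higher). Gpc3, a proteoglycan that restrains fetal growth, stood at 2.70, 2.28, 242 and 146 CPM in BRAF V600E Bap1 KO and at 0.913 ± 0.606 CPM in GNA11 Q209L Bap1 KO (6.77, adjusted p = 0.00523). Hmga2, a chromatin protein, was high in the other pair, at 817, 421, 22.5 and 8.44 CPM, against 11.98 ± 9.25 CPM (4.73, adjusted p = 0.0148). The nuclear receptor Nr6a1 (1.55, adjusted p = 0.013) and the RNA-binding Trim71 (4.02, adjusted p = 0.00539, at most 1.11 CPM in any library) also rose. Among proteins that bind Igf2 RNA, Igf2bp3 rose (2.66, adjusted p = 0.0423) with 7.42 CPM in BRAF replicate 3 and 0.219 to 1.16 CPM in the others. Igf2bp2 stood at 168, 84.0, 8.11 and 15.3 CPM in the BRAF libraries (0.31, adjusted p = 0.762), and Igf2bp1 stayed under 1 CPM and was not tested.

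Of 17 genes for imprint maintenance and DNA methylation 5 rose and none fell, beside 24.7% and 16.5% of all genes. With BRAF replicates 2 and 4 left out 5 rose and none fell as well. That fit called 3571 of 16254 genes, 2199 of them higher. Ctcf, whose protein binds the H19 control region, averaged 86.1 ± 4.59 CPM in BRAF V600E Bap1 KO and 66.9 ± 9.004 CPM in GNA11 Q209L Bap1 KO (0.37 ± 0.18, adjusted p = 0.115). Zfp57, which protects methylated imprints, rose from 0.714 ± 0.442 to 8.13 ± 5.95 CPM (3.50 ± 0.76, adjusted p = 0.00605), with 13.3 CPM in replicate 2 and 1.36 CPM in replicate 1. The methylcytosine oxidases Tet1 (2.47, adjusted p = 0.00855), Tet2 (1.49, adjusted p = 0.00744) and Tet3 (0.98, adjusted p = 0.0123) rose. For Bap1 KO against no knockout under GNA11 Q209L, edgeR called 0 of these 17, with 5 at an unadjusted p under 0.05 (1970 of all 17350 genes), while DESeq2 called 1 and limma voom 0. In the signalling and fetal lists edgeR, DESeq2 and limma voom each called 0, with 0 and 1 at an unadjusted p under 0.05 in edgeR.

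Levels across the 11 libraries were compared on the log2 CPM scale, as a description in which the points share their genotype. Among 10202 genes the ones most like H19 were Glipr2 (Pearson r = 0.951), Rap1gap2 (0.928), Nlrc5 (0.917), Clec2d (0.916) and Ly6c1 (0.910). Each was highest in BRAF V600E Bap1 KO replicates 2 and 4 apart from Nlrc5, which was second highest in replicate 1. The most like Igf2 were Caml (0.983), Mgp (0.981), Nck2 (0.976), Nfkbiz (0.974) and Rab24 (0.972). Mgp, the matrix Gla protein, stood at 995, 1721, 616 and 466.4 CPM in BRAF replicates 1 to 4, the same order as Igf2. Among the 10 genes themselves r was highest for Igf2 with Meg3 (0.909) and lowest for Igf2 with Plagl1 (-0.923).

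Markers of the remaining cell types give the makeup beside which these levels stand. In the BRAF libraries 8 adipocyte markers summed to 12.1 to 857 CPM, 8 keratinocyte markers to 130.4 to 12646 CPM and 8 Schwann cell markers to 72.1 to 2262 CPM. In GNA11 Q209L Bap1 KO these sums were 63.1 to 247, 0.812 to 1551 and 1374 to 2443 CPM. The 5 cartilage and bone markers in the table summed to 36.4 to 137 CPM in the BRAF libraries and 9.24 to 25.6 CPM in GNA11 Q209L Bap1 KO. Sums for 8 endothelial markers were 129 to 354 and 341 to 564 CPM, those for 8 smooth muscle and pericyte markers 260.2 to 1008 and 229 to 921 CPM, and those for macrophage and T cell markers 446 to 1108 and 197 to 1011 CPM. Of the tested markers 7 of 8 for muscle, 9 of 10 for fibroblast, 5 of 8 for adipocyte, 4 of 5 for cartilage and bone, 3 of 4 for salivary gland and 3 of 8 for keratinocyte rose in BRAF V600E Bap1 KO, as did 4 of 8 for macrophage and T cell and 2 of 8 for smooth muscle and pericyte. Of all genes 24.7% rose and 16.5% fell in that comparison. All 8 melanocyte markers and 1 of 8 endothelial markers fell, and of the 8 Schwann cell markers none was called by edgeR, with Mbp nearest (adjusted p = 0.058). Without replicate 4 these counts were 0 for muscle, 7 for fibroblast, 1 for adipocyte, 2 for cartilage and bone, 1 for salivary gland, 2 for keratinocyte, 3 for macrophage and T cell and 1 for smooth muscle and pericyte. The fit without replicate 4 called 3408 of 16874 genes higher. The part of these cells in the imprinted gene levels was not tested.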

How the data were processed

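RNA-seq counts of 11 tumours were used. The authors deposited 1 table of estimated counts per gene, whole numbers for every gene, not normalised. Reads were aligned with STAR to mm9, per the submitters' processing notes; counter, annotation and strand use are not given in those sources. After 7 repeated lines and 6 transgene lines were left out, 18756 mouse genes remained. Library totals were 18338082 to 81035135, so 3 counts correspond to 0.0337 to 0.166 CPM, which covers counting error only.

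Groups came from the genotype labels. Counts were fitted with edgeR 4.0.16 in R 4.3.3 (TMM scaling, filterByExpr, quasi-likelihood test, all 11 libraries in 1 model) over 17350 genes, with Benjamini-Hochberg adjustment over all of them and a threshold of 0.05. CPM values are TMM-scaled, and SE is the log2 difference over the root of F. The 2 comparisons, GNA11 Q209L Bap1 KO minus GNA11 Q209L and BRAF V600E Bap1 KO minus GNA11 Q209L Bap1 KO, share the GNA11 Q209L Bap1 KO libraries. The 10 genes and all 23 lists were chosen with earlier results of these data known.

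Named beside the 10 were up to 4 genes per list with the smallest p in the BRAF comparison, a fixed set of IGF and imprinting genes, and the 5 genes most like H19 and Igf2 by Pearson r of log2 CPM (mean log2 CPM of at least 2). Begain, Dio3, Sgce, Copg2, Mkrn3, Snrpn, Tspan32, Osbpl5, Cd81, Sall4, Mbp and other genes named outside that rule were chosen after their values were seen. Sequences are from RefSeq (GRCm38.p6); no gene coordinates of the authors' build are given.

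Alternatives were DESeq2 1.42.0, limma 3.58.1 voom, other scalings, no filter, only the genotypes compared, summing the 2 libraries that share an identifier, leaving out each library and, chosen after seeing the data, leaving out the BRAF libraries with an NA entry. Tested on simulated data, the edgeR fit recovered 25% of genes changed by 2 and 76% of those changed by 4 on the log2 scale in the Bap1 comparison (16819 genes), and 58% and 85% in the BRAF comparison (16861 genes). The changed genes were drawn above a minimum level, with 1 mean for all genotypes. Recovery for genes as low as Igf2 and Dlk1 in the GNA11 tumours was thus not measured. No 2 replicates agreed within sampling noise.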

Additional observations from a re-analysis of the deposited data

Results flagged for a closer look

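Of 20 groups of 4 or 5 libraries examined, 3 held a library far from the others, where chance gives about 1 in 20. In BRAF V600E Bap1 KO replicate 1 Igf2r reached 536 CPM, and the next highest library of that genotype had 173 CPM. In BRAF V600E Bap1 KO replicate 3 Dlk1 reached 21.9 CPM, and the next had 2.49 CPM. In GNA11 Q209L Bap1 KO replicate 3 Grb10 was at 22.8 CPM, and the next lowest had 103 CPM.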

How the results depend on the processing

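In the comparison of Bap1 KO under GNA11 Q209L, 5 genes in all were called. The count was 431 with DESeq2, 64 with only the 2 genotypes compared in the fit, 3 with DESeq2 size factors in edgeR, 3 with no filter on low counts and 0 with the pair of one identifier summed; the cause was not tested. Leaving out 1 library gave 0 to 13. None of the 10 imprinted genes was called under any of the 19 alternatives. Of their 190 log2 differences there, 182 kept their direction and 8 reversed. Grb10 was -0.12 with limma voom and -0.0067 with the shared identifier summed. With 1 library left out Grb10 ran from -0.16 to 0.45, H19 from -1.56 to 0.095, Dlk1 from -0.63 to 7.19 and Meg3 from -2.72 to 1.21. A lone GNA11 Q209L library is then assumed to vary like the other groups.

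Between the genotypes with Bap1 KO 7146 genes were called, 3571 without BRAF V600E Bap1 KO replicates 2 and 4, and 5448 to 7176 with 1 library left out. H19 moved from 4.92 to 2.34 without those 2 libraries and Dlk1 from 3.66 to 1.52 without BRAF replicate 3, and the other 188 log2 differences moved by less than the spread between replicates. No paired analysis was possible because replicate numbers follow accession order and pair no libraries. Levels near 3 counts, such as Dlk1 in GNA11 Q209L, are limited by depth.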
